A study of Mus musculus with 9 samples.

Results

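Rax and Raxos1 are overlapping genes on opposite strands of mouse chromosome 18, at the locus whose name the Cre driver line of the study carries. They were found by matching the Ensembl identifiers of the deposited count table to these symbols, and they are 2 of its 47729 genes. The pair was chosen by measured values: Raxos1 had been seen to be high in the Yap CKO libraries, and its levels are therefore given as a description, with no test. The level of Rax against C57 retinas was not what chose it, and that comparison was tested.

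Whole mouse retinas were sequenced in 9 bulk libraries, 3 in each of 3 groups on a C57Bl6/J background. Yap CKO mice were homozygous for floxed Yap and carried Rax-CreERT2, and control mice were homozygous for floxed Yap without a Cre. Both groups received 4-OHT, the active metabolite of tamoxifen, by intraperitoneal injection at P10, and their retinas were taken at P60, 1 retina per library. C57 mice were wild type, were examined at P30 and came from an earlier series. Age, floxed allele, 4-OHT, source and depth all separate the C57 group from the others and cannot be told apart. The letters MNU stand in the column names of both P60 groups and in none of C57, and the labels say nothing of them. Whatever they stand for also separates C57 from the others and cannot be told apart from the rest. The controls are named so after the study's design text, although their genotype entry says Yap CKO and lists no Cre. One C57 column carries a number that no sample description carries. It is called the unnumbered C57 library here. The labels do not say whether the 3 retinas of a group came from separate animals, so the spread is that between these libraries.

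Rax is a homeobox transcription factor of the eye field, from which the optic vesicle and neural retina arise. In mice it is expressed in retinal progenitors and, after birth, in Müller glia, the resident glia of the retina, and it acts beside Crx on photoreceptor genes. It is also expressed in the developing hypothalamus and in tanycytes. Inducible Cre alleles under Rax are used for Müller glia because few other cells of the mature retina express the gene strongly. How the Rax-CreERT2 allele is built, and whether it interrupts Rax, is not stated in the labels. Raxos1 is a transcript annotated by its position opposite Rax, and no role is given to it here.

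In the GENCODE M21 annotation, on GRCm38, Rax (ENSMUSG00000024518) is a protein-coding gene on the minus strand of chromosome 18 from 65928277 to 65939787. Raxos1 (ENSMUSG00000097907) is annotated as antisense on the plus strand from 65937538 to 65940447. The gene bodies overlap over 2250 bases at the 5′ end of Rax, and Raxos1 extends 660 bases beyond that end. Raxos1 therefore lies across the transcription start of Rax. The joined exons of Rax cover 5846 bases and those of Raxos1 2547 bases. Of these, 1604 exon bases are shared between the strands, which is 27.4% of Rax and 63.0% of Raxos1.

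Because the exons overlap, reads counted without regard to strand would move between the genes. The libraries were directional per the labels, while the strand setting of the counting is not given in the sources used here. It was checked on 72 antisense genes that lie wholly within exons of a single protein-coding gene of the other strand and that would collect at least 1000 reads if strand were ignored. Over the 9 libraries, their median level per length was 0.230% of that of their host genes, so the counts were made by strand. At each P60 library's own median rate, applied to all Rax reads, between 1.38 and 2.91 reads would fall on Raxos1. Only 27.4% of the Rax exon bases are shared with Raxos1, so the expected numbers given here are set too high. In the Yap CKO libraries the expected 2.35, 2.16 and 2.90 reads stood against 139, 121 and 160 counted Raxos1 reads. At the control libraries' median rates, 2.42, 1.38 and 2.91 reads stood against 11, 10 and 26. The embedded genes varied, and at their 95th percentile the Rax reads would give 63.4, 47.9 and 45.5 reads in Yap CKO, 42.8, 36.0 and 32.9 in control, and 43.4, 20.2 and 15.9 in C57. The counted Raxos1 reads were above these numbers in every Yap CKO library and below them in every control and C57 library (15, 8 and 12 reads in C57). Being below numbers that are set too high does not place the control and C57 reads within that rate.

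Yap1, the targeted gene, had 15.2, 21.4 and 24.0 CPM in the Yap CKO libraries, against 66.3, 60.3 and 56.8 CPM in the control libraries. It was lower in Yap CKO in edgeR's quasi-likelihood test (log2 fold change −1.60, SE 0.17, adjusted p = 0.0327). Yap1 in the C57 libraries, at 23.9, 25.8 and 31.1 CPM, was also under all 3 controls. Total counts were 34739679 to 37629264 in the P60 libraries and 13760765 to 16808499 in the C57 libraries. Replicates of each group differed by far more than counting noise. Genes of the lens summed to 897.9 CPM in Yap CKO 3 and to at most 19.1 CPM in the 8 other libraries. By Xist and Y-linked transcripts, Yap CKO 1 and 2, C57 1 and the unnumbered C57 library were female, and the 5 others were male.

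Rax was readily detected in every library. Its reads numbered 1611, 1221 and 1138 in the Yap CKO libraries, 1417, 796 and 954 in the control libraries, and 980, 472 and 328 in the C57 libraries. Scaled to library size by TMM over all 9 libraries and given as CPM, these were 40.7, 31.6 and 28.3 CPM in Yap CKO retinas and 37.3, 19.8 and 23.1 CPM in control retinas. C57 retinas had 83.9, 34.9 and 23.3 CPM. All 3 groups overlapped. Levels averaged 33.5 ± 6.4 CPM in Yap CKO, 26.7 ± 9.3 CPM in control and 47.4 ± 32.2 CPM in C57 (SD, n = 3 each). The spread within C57 was the widest of the 3 groups, with C57 1 at 3.61 times the level of the unnumbered C57 library. Neighbours in the order C57, Yap CKO, control were therefore closer to each other than the spread of C57.

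Raxos1 was a low transcript that separated the Yap CKO libraries from those of the other groups. The Yap CKO libraries held 139, 121 and 160 Raxos1 reads, against 11, 10 and 26 in the control libraries and 15, 8 and 12 in the C57 libraries. The exact 95% Poisson intervals, which cover counting error only, ran from 100.4 to 186.8 reads over the Yap CKO libraries and from 4.8 to 38.1 over the control libraries. In CPM, the Yap CKO retinas had 3.51, 3.13 and 3.98, against 0.289, 0.249 and 0.630 in control retinas and 1.28, 0.592 and 0.852 in C57 retinas. Every Yap CKO library was thus above every control and every C57 library. The means were 3.54 ± 0.43 CPM in Yap CKO, 0.389 ± 0.209 CPM in control and 0.910 ± 0.350 CPM in C57 (SD, n = 3 each). The lowest C57 library was below the highest control library, so control and C57 overlapped. Over the C57 libraries the intervals ran from 3.5 to 24.7 reads.

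**Figure D1:**
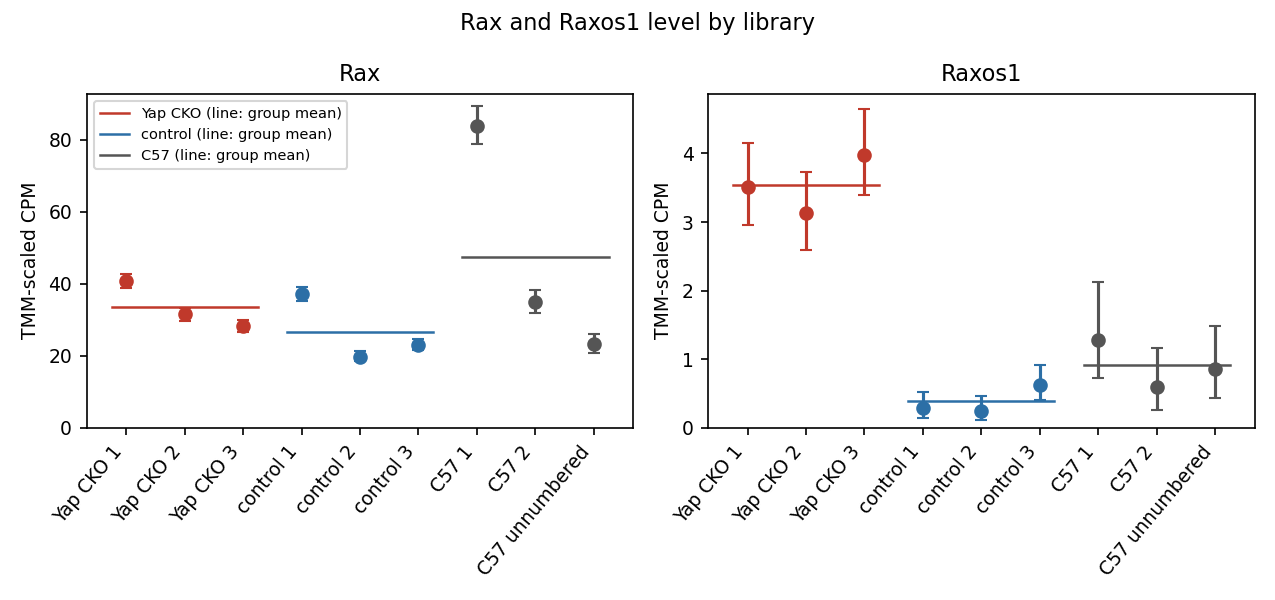
Level of Rax (left) and Raxos1 (right) in TMM-scaled CPM in each library, with 95% Poisson intervals from the reads as bars and the group mean as a line. Rax overlaps between all groups and C57 1 stands highest at 83.9 CPM. Raxos1 lies at 3.13 to 3.98 CPM in the Yap CKO libraries and at or below 1.28 CPM in the control and C57 libraries.

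Set per length, Rax was above Raxos1 in all 9 libraries. Rax had 6.96, 5.40 and 4.84 CPM per kilobase of exon in Yap CKO, 6.37, 3.38 and 3.95 in control, and 14.4, 5.97 and 3.98 in C57. Raxos1 had 1.38, 1.23 and 1.56 CPM per kilobase in Yap CKO, 0.114, 0.0976 and 0.247 in control, and 0.504, 0.232 and 0.335 in C57. Per length, Raxos1 reached 19.8, 22.8 and 32.3 per 100 of Rax in the Yap CKO libraries. It reached 1.78, 2.88 and 6.26 per 100 in the control libraries and 3.51, 3.89 and 8.40 per 100 in the C57 libraries.

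The ratio of the 2 genes within a library needs no scaling between libraries. Per 100 Rax reads there were 8.63, 9.91 and 14.1 Raxos1 reads in Yap CKO, 0.776, 1.26 and 2.73 in control, and 1.53, 1.70 and 3.66 in C57. The lowest Yap CKO ratio was above the highest ratio of the control and C57 libraries, and control and C57 overlapped. Group means were 10.9 ± 2.8 in Yap CKO, 1.59 ± 1.02 in control and 2.30 ± 1.18 in C57 (SD, n = 3 each). On the log2 scale the mean ratio of Yap CKO was 2.89 above that of control and 2.27 above that of C57, and control was 0.62 below C57 (log2 difference −0.62). Summed over a group, 420 Raxos1 reads stood beside 3970 Rax reads in Yap CKO, 47 beside 3167 in control and 35 beside 1780 in C57.

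**Figure D2:**
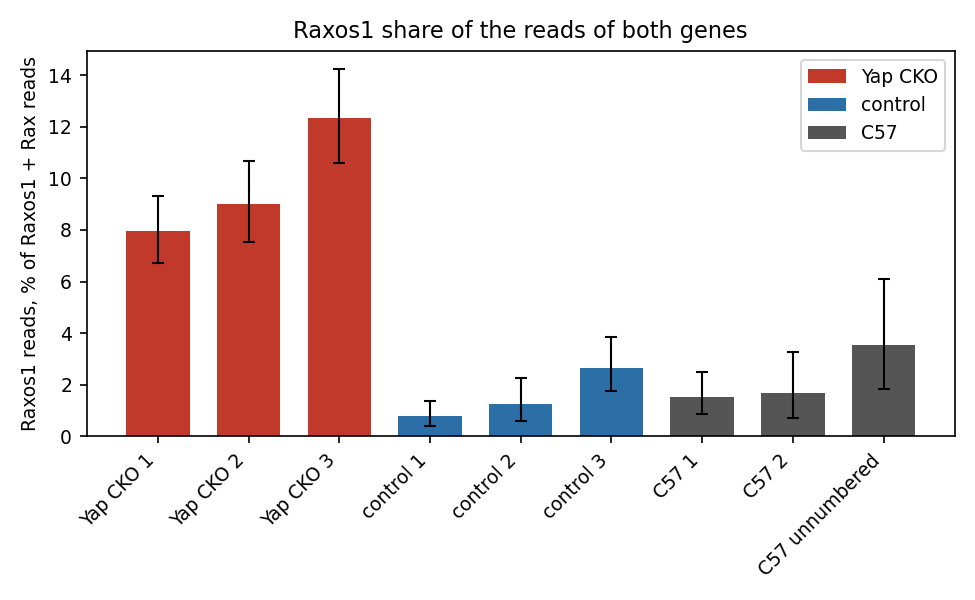
Raxos1 reads as a percentage of Raxos1 plus Rax reads in each library, with exact 95% binomial intervals that cover counting error only. The share was 7.94% to 12.3% in the Yap CKO libraries, 0.770% to 2.65% in the control libraries and 1.51% to 3.53% in the C57 libraries, and the lowest bound among Yap CKO libraries (6.72%) was above the highest bound of the 2 other groups (6.08%).

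Yap CKO and control retinas have the same age and injection and differ by the Rax-CreERT2 allele and the loss of Yap that it brings. The allele and the loss come together in every Yap CKO library and cannot be told apart. Sex also differed, as Yap CKO 1 and 2 were female and Yap CKO 3 and all controls were male. Fitted on these 6 libraries, Raxos1 averaged 3.85 ± 0.47 CPM in Yap CKO and 0.425 ± 0.231 CPM in control, a log2 fold change of 3.16 (SE 0.33), or 8.94-fold. Rax averaged 36.4 ± 6.8 CPM in Yap CKO and 29.1 ± 9.8 CPM in control, a log2 fold change of 0.33 (SE 0.26), or 1.25-fold, with overlapping libraries. Over all 16539 genes tested in this comparison, 33 passed an adjusted p of 0.05 (0.200%), and the groups did not overlap for 4187 genes (25.3%). Raxos1 was among the genes without overlap and Rax was not, and since the pair was chosen on this comparison nothing is read from these counts. The lowest Yap CKO library was 4.96 times the highest control library for Raxos1. When 0.1 CPM was added to both values, none of the 16539 genes had a wider gap upwards. Raxos1 had the 12th highest log2 fold change. Of the 11 genes above it, 10 were the lens crystallin and lens filament genes Cryaa, Cryba1, Cryba2, Cryba4, Crybb1, Crybb2, Crygb, Crygs, Bfsp1 and Bfsp2, and the other was Serpine3. Of these 11, 1 had no overlap between the groups. As Raxos1 was chosen on this comparison, nothing is read from its gap or its rank either. Lens genes were high in Yap CKO 3, in which Raxos1 was 3.98 CPM. In Yap CKO 1 the 7 lens genes summed to 2.17 CPM and Raxos1 was 3.51 CPM. The part of lens content in the Raxos1 values was not tested.

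In the authors' deposited table of 305 genes, Raxos1 is listed and Rax is not. By its name, it holds genes already selected on p, fold change and FPKM for Yap CKO against control. Its shares and ranks are therefore not those of all genes. The authors' deposited table gives Raxos1 a mean FPKM of 1.4 in Yap CKO, 0.1 in control and 0.3 in C57. Its log2 fold changes in the authors' deposited table are 3.17 for Yap CKO against control, −1.19 for control against C57 and 1.98 for Yap CKO against C57. Of the 74 genes with a positive log2 fold change of Yap CKO against control in the authors' deposited table, 5 lie above Raxos1. The authors' deposited table also carries a fold enrichment for NRL and for CRX, transcription factors of photoreceptors, without naming the assay or the tissue. Raxos1 has 8.94 for NRL and 8.44 for CRX in the authors' deposited table, where 23 of the 305 genes (7.54%) have a value above 0 for NRL, 23 for CRX and 14 for both.

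Rax was tested against C57. Rax averaged 25.8 ± 8.9 CPM in control and 45.1 ± 30.5 CPM in C57 when scaled within these 6 libraries. The edgeR log2 fold change was −0.80 (SE 0.45, adjusted p = 0.184), in a comparison in which 7202 of 15820 genes passed (45.5%). Rax averaged 32.2 ± 6.2 CPM in Yap CKO and 45.3 ± 30.8 CPM in C57. The edgeR log2 fold change was −0.49 (SE 0.45, adjusted p = 0.411), in a comparison in which 6419 of 15840 genes passed (40.5%). Neither difference was larger than the spread between libraries. Both rested on C57 1: without it, edgeR's log2 fold change was −0.10 (adjusted p = 0.803) for control against C57 and 0.21 (adjusted p = 0.455) for Yap CKO against C57. Scaled to the 15 Müller glia genes instead, Yap CKO against C57 was 0.14 (adjusted p = 0.823 by edgeR), the other sign from the value by TMM.

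For Raxos1, the Yap CKO libraries averaged 3.40 ± 0.41 CPM and the C57 libraries 0.870 ± 0.334 CPM, a log2 fold change of 1.98 (SE 0.30), or 3.94-fold, with no overlap between the groups. The groups of that comparison did not overlap for 8707 genes (55.0%), and 755 genes had a higher log2 fold change. Raxos1 averaged 0.376 ± 0.202 CPM in control and 0.865 ± 0.332 CPM in C57, a log2 fold change of −1.17 (SE 0.47). These groups overlapped, in a comparison in which 9300 genes (58.8%) did not overlap. The 3 comparisons share their libraries pairwise, and the Yap CKO libraries that chose Raxos1 also enter the one against C57.

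Cell content differed between the groups and between the P60 libraries. In bulk retina, fewer cells of a type and less RNA per cell cannot be told apart. The 15 Müller glia genes, all detected, summed to 6414 to 7728 CPM in Yap CKO, 5979 to 6870 CPM in control and 9882 to 10710 CPM in C57. Glul weighed heavily in these sums, at 617.7 to 930.4 CPM in Yap CKO, 795.3 to 1083 in control and 4020 to 4274 in C57. Clu went the other way, at 2144 to 2630, 1751 to 2084 and 898.9 to 1182 CPM. The sums therefore do not speak for every gene of the list. Of the 15 genes, 1 was higher and none lower in Yap CKO than in control by edgeR (Dbi, an acyl-CoA binding protein, log2 fold change 0.56, adjusted p = 0.0496), beside 0.200% of all genes called. That call lay at the threshold, and no gene was called higher when control 1, control 2, Yap CKO 1 or Yap CKO 2 was left out. At an unadjusted p under 0.05 by edgeR, 3 of the 15 were higher and 2 lower, beside 2950 of all 16539 genes in either direction. In control against C57, 3 were higher and 9 lower, beside 45.5% of all genes called, and those lower included Glul, the glutamine synthetase of Müller glia (−2.13, adjusted p = 6.3e-05 by edgeR). The 11 reactive glia genes summed to 3631 to 4252 CPM in Yap CKO, 3483 to 3739 CPM in control and 303.4 to 413.0 CPM in C57.

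Divided by the geometric mean of the 15 Müller glia genes in CPM and multiplied by 1000, with nothing added before the division, Raxos1 was 16.6, 15.4 and 15.8 in Yap CKO. It was 1.26, 1.29 and 2.97 in control and 3.72, 1.78 and 2.60 in C57. On that scale the Yap CKO libraries differed by 1.07 times from lowest to highest and stood above all others, while control and C57 overlapped. Rax on that scale was 191.8, 155.8 and 112.5 in Yap CKO, 162.9, 102.9 and 109.1 in control, and 243.1, 105.3 and 71.0 in C57, with all groups overlapping.

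Photoreceptor transcripts varied widely between groups and among the P60 libraries. The 8 rod genes summed to 19860, 10410 and 761.9 CPM in Yap CKO, 18890, 3526 and 9435 CPM in control and 107300, 103400 and 93300 CPM in C57. Between Yap CKO and control, none of the 8 rod and 9 cone genes passed in edgeR's test, beside 0.200% of all genes. None had an unadjusted p under 0.05, beside 2950 of all 16539 genes. In control against C57, all 8 rod and all 9 cone genes were lower in control, and in Yap CKO against C57 3 rod and 6 cone genes were lower in Yap CKO. Over all genes, 45.5% were called in control against C57 and 40.5% in Yap CKO against C57, so the 3 of 8 rod genes (37.5%) lay near the share of all genes. Within each group of 3, the order of Rax from highest to lowest was the order of the rod sum. In C57 1 the rod sum was 1.15 times that of the unnumbered C57 library, against 3.61 times for Rax. Raxos1 did not have that order in the P60 groups: its highest Yap CKO value was in the library with the lowest rod sum. Cplx4, a complexin of photoreceptor ribbon synapses whose gene lies 15.9 kb from the Rax start, was 229.0, 134.6 and 37.6 CPM in Yap CKO and 204.3, 64.8 and 116.3 CPM in control, in the order of the rod sum. It was 587.5, 703.6 and 742.3 CPM in C57. The part of photoreceptor content in the Rax values was not tested.

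**Figure D3:**
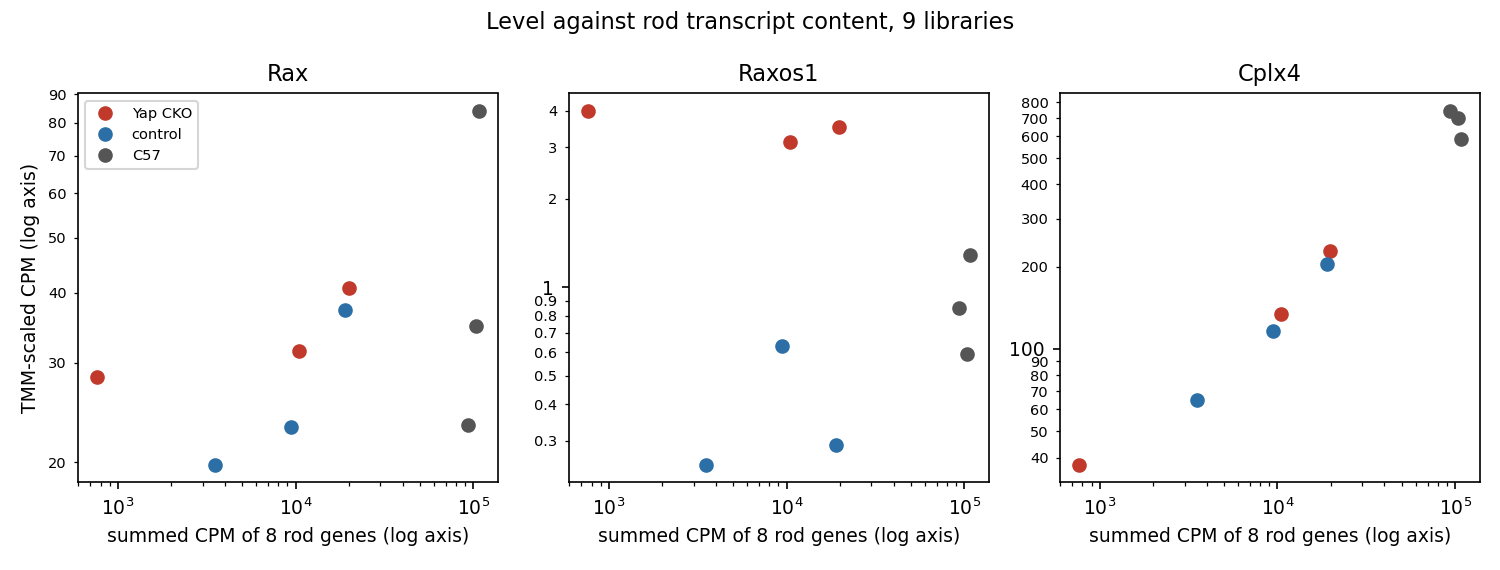
TMM-scaled CPM of Rax, Raxos1 and Cplx4 (log axis) against the summed CPM of 8 rod genes (log axis), 1 point per library. Rax and Cplx4 are higher in the P60 libraries with more rod transcripts within each group, while Raxos1 is at 3.13 to 3.98 CPM in the Yap CKO libraries over rod sums of 761.9 to 19860 CPM.

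Of 6 genes of the hypothalamus, another tissue that expresses Rax, 1 passed the count filter. This gene, Pomc, had 2.66 to 4.75 CPM in Yap CKO, 2.41 to 3.51 CPM in control and 0.740 to 2.65 CPM in C57, and Trh had no read in any library. By edgeR, Pomc was higher in Yap CKO than in C57 (log2 fold change 1.46, adjusted p = 0.0324), and did not pass in Yap CKO against control (0.37, adjusted p = 0.472) or in control against C57 (1.10, adjusted p = 0.0658). Of the 6, 3 had no read in Yap CKO, 1 in control and 4 in C57. Sex differed within and between groups. Raxos1 was 3.98 CPM in Yap CKO 3, the only male library of its group and the one with high lens genes, against 0.249 to 0.630 CPM in the 3 control libraries, all male. The part of sex in the Raxos1 values was not tested.

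The genes around the pair were counted to see what else lay in the region. The window of 500000 bases on either side of the Rax start holds 11 further named genes, 6 of which passed the count filter. None passed between Yap CKO and control in edgeR's test or in limma-voom, beside 33 (0.200%) and 15 of all genes. DESeq2 called 2 neighbours, beside 922 of all genes. At an unadjusted p under 0.05 by edgeR there were 2950 of all 16539 genes, and 2 neighbours were higher. They were Sec11c, a signal peptidase subunit (log2 fold change 0.33, SE 0.08, adjusted p = 0.107 by edgeR), and Lman1, a cargo receptor of the early secretory pathway (0.64, SE 0.16, adjusted p = 0.127 by edgeR). The nearest tested genes on either side, Grp, a neuropeptide gene, and Cplx4, were −0.16 (SE 0.20) and 0.06 on the log2 scale. The median of the 6 was −0.03, beside 0.01 over all genes tested. The log2 fold change of Raxos1 was larger than those of its tested neighbours, the next highest being 0.64. Raxos1 was chosen for being high in Yap CKO, so nothing is read from that difference.

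In control against C57, Sec11c (0.43, adjusted p = 0.0184) and Grp (1.03, adjusted p = 0.0127) were higher in control and Cplx4 was lower (−2.38, adjusted p = 0.00164) by edgeR. In Yap CKO against C57, Sec11c (0.75, adjusted p = 0.00349) and Lman1 (0.44, adjusted p = 0.047) were higher in Yap CKO and Cplx4 was lower (−2.34, adjusted p = 0.0286) by edgeR. With 3 of 6 called in each, these shares lay close to the 45.5% and 40.5% of all genes called.

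**Figure D4:**
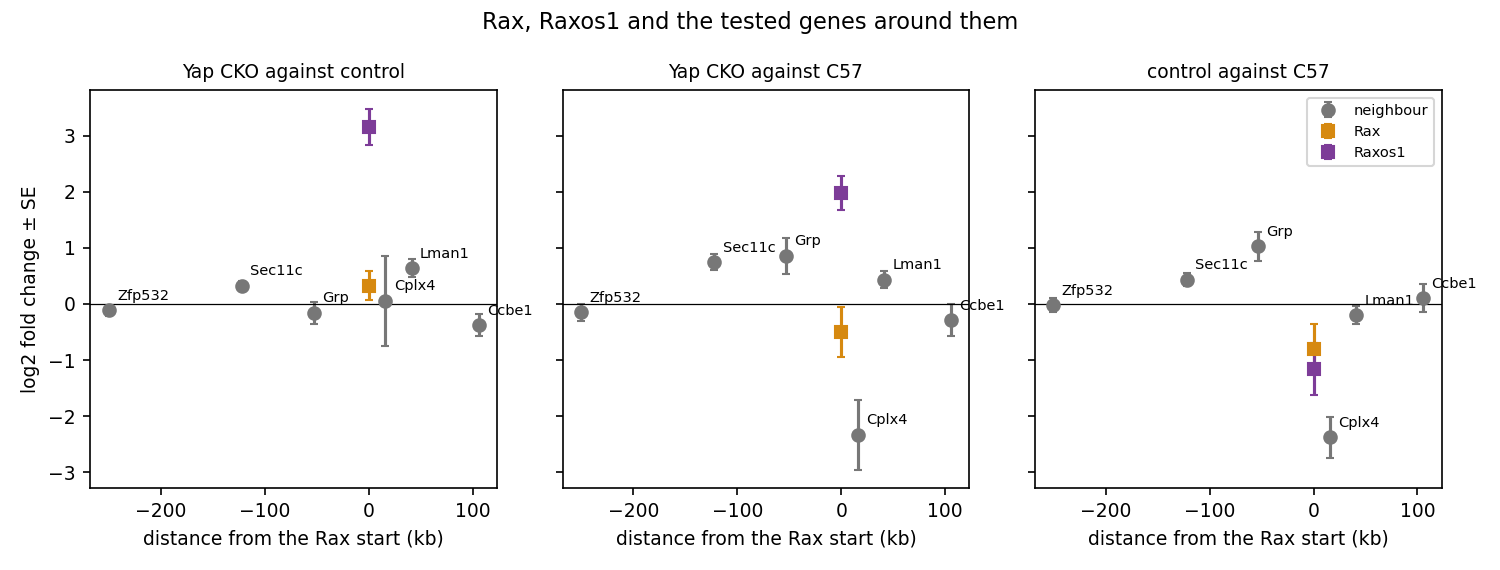
Log2 fold change with its standard error (bars) of Rax, Raxos1 and the 6 tested neighbouring genes against the distance from the Rax start in kilobases, for each comparison. Between Yap CKO and control, Raxos1 stands at 3.16 while the neighbours lie between −0.38 and 0.64.

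Raxos1 was set beside the other genes that are named as the opposite strand of a known gene. The count table holds 292 of them, 82 of which passed the filter in Yap CKO against control. By edgeR and limma-voom none of the 82 passed, beside 33 (0.200%) and 15 of all genes. DESeq2 called 1, beside 922 of all genes. At an unadjusted p under 0.05 by edgeR, 6 were higher and none lower, beside 2950 of all 16539 genes in either direction. Nothing is read from these counts. Beside 3.16 for Raxos1, which was chosen for being high in Yap CKO, the log2 fold changes of the 82 ran from −1.03 to 0.97. Their median was 0.09, beside 0.01 over all genes tested. The 4 with the smallest p were Rab26os (0.72, adjusted p = 0.107), Lhx1os (0.63, adjusted p = 0.125), Wdr83os (0.27, adjusted p = 0.179) and N4bp2os (0.55, adjusted p = 0.213) by edgeR. Against C57, 8 of 68 were higher and 21 lower in control (42.6% called, beside 45.5% of all genes). In Yap CKO against C57, 7 of 72 were higher and 14 lower in Yap CKO (29.2% called, beside 40.5% of all genes). Pax6os1 was among the called in both, with log2 fold changes of −1.41 in control (adjusted p = 0.000369) and −1.53 in Yap CKO (adjusted p = 0.000778) against C57 by edgeR.

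**Figure D5:**
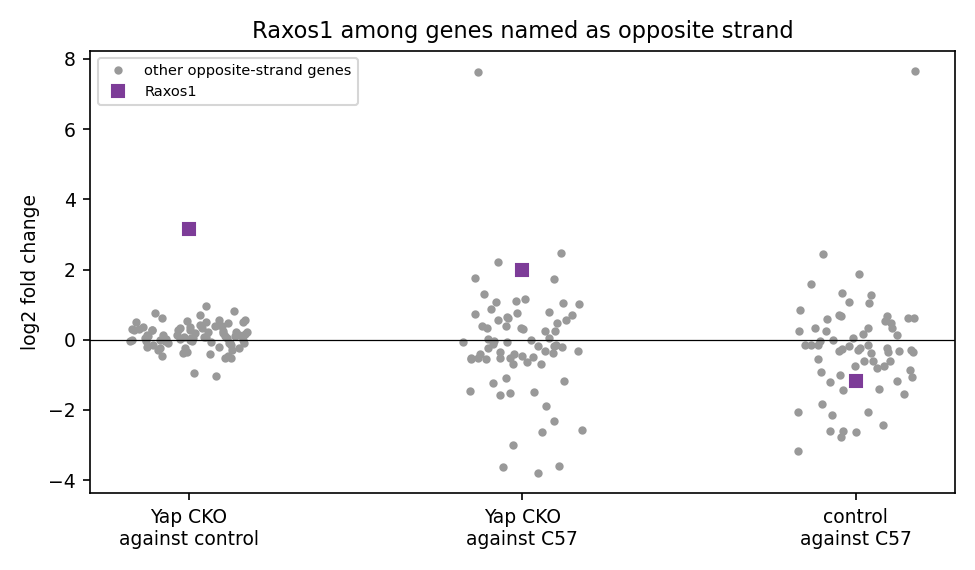
Log2 fold changes of the tested genes named as opposite strand (grey points, spread sideways at random) and of Raxos1 (squares) in the 3 comparisons. Between Yap CKO and control the grey points lie between −1.03 and 0.97 and Raxos1 at 3.16, whereas in both comparisons with C57 Raxos1 lies within the range of the others.

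Ratios of opposite-strand to sense reads at other eye transcription factors were set beside that of Raxos1 to Rax. Six3os1 had 42.5, 46.0 and 38.6 reads per 100 Six3 reads in Yap CKO, 40.0, 37.7 and 39.4 in control, and 97.5, 81.9 and 85.3 in C57. Otx2os1 had 8.16, 8.38 and 6.80 per 100 Otx2 reads in Yap CKO, 8.25, 8.27 and 8.39 in control, and 5.21, 6.52 and 5.96 in C57. Pax6os1 had 0.915, 1.17 and 0.756 per 100 Pax6 reads in Yap CKO, 1.08, 1.00 and 0.947 in control, and 3.07, 3.62 and 3.19 in C57. These 3 ratios overlapped between Yap CKO and control and separated both from C57, upwards for Otx2os1 and downwards for Six3os1 and Pax6os1. The Raxos1 ratio had the other arrangement, with Yap CKO apart from control and C57, which overlapped. Raxos1 was chosen for being high in Yap CKO, so nothing is read from that contrast. Vax2os had 109.6, 71.2 and 38.3 reads per 100 Vax2 reads in Yap CKO, 92.8, 52.4 and 65.2 in control, and 201.1, 228.0 and 344.8 in C57, in the order of the rod sum in the P60 groups.

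The transcription factors among which Rax acts in the eye field and in progenitors were counted as a list of 14. Per length and averaged over the 9 libraries, Rax stood 11th of 15 with them, at 6.14 CPM per kilobase, between the Notch effector Hes1 at 8.08 and the homeobox factor Meis1 at 4.83. Foxn4 was lowest at 0.00585. Between Yap CKO and control, none of the 13 tested members passed in edgeR, DESeq2 or limma-voom. Those called over all genes were 33 (0.200%), 922 and 15. By edgeR, 2950 of all 16539 genes had an unadjusted p under 0.05, and none of the 13 members did. Their log2 fold changes lay between −0.14 and 0.37, with the value for Rax, 0.33, inside that range. The median was 0.00, beside 0.01 over all genes tested.

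In control against C57, 4 of the 13 were higher by edgeR, namely Sox2 (2.14, adjusted p = 1.4e-05), Tbx2 (1.00, adjusted p = 0.00858), Six3 (0.56, adjusted p = 0.00234) and Pax6 (0.30, adjusted p = 0.0453). Otx2 was lower (−1.49, adjusted p = 7.7e-05). In Yap CKO against C57, Sox2 (2.20, adjusted p = 4.7e-05), Tbx2 (1.14, adjusted p = 0.0102) and Six3 (0.55, adjusted p = 0.0315) were higher and Otx2 was lower (−1.49, adjusted p = 0.000391) by edgeR. The called shares, 38.5% and 30.8%, were below the 45.5% and 40.5% of all genes. Crx, the photoreceptor factor beside which Rax acts, was lower against C57 in control (−2.67, adjusted p = 0.000328) and in Yap CKO (−2.63, adjusted p = 0.0013) by edgeR. Rax, at −0.80 and −0.49, passed in neither.

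The order of Rax over the C57 libraries, highest in C57 1 and lowest in the unnumbered C57 library, was shared by 3 of these 14 factors, among them Tbx2 at 59.4, 40.9 and 31.2 CPM in C57 1, C57 2 and the unnumbered C57 library. The reverse order held for 5 of the 14, among them Pax6 at 231.6, 243.5 and 264.9 CPM, and 6 had another order. Total counts were lowest in C57 1 and highest in the unnumbered C57 library. The part of depth or library quality in these values was not tested.

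The genes whose profiles were most like those of the pair were ranked by Pearson's r of log2(CPM + 1). Over the 9 libraries, those most like Rax among 11361 genes were Traf7 (0.962), Pfdn6 (0.961), Daglb (0.960), Rtn2 (0.959) and Tmed1 (0.957). Over the 6 P60 libraries they were Ebpl (0.996), Pcif1 (0.994), Snrnp70 (0.991), Colgalt1 (0.989) and Add3 (0.989), with none in common. Most like Raxos1 over the 9 libraries, among 13167 genes, were Acot1 (0.933), Lhx1os (0.929), Nnat (0.910), Slc35b1 (0.909) and Npy (0.904). Acot1, an acyl-CoA thioesterase, had 4.57, 4.60 and 6.39 CPM in Yap CKO, 2.50, 2.81 and 2.30 in control and 3.17, 2.89 and 2.84 in C57. Over the 6 P60 libraries they were Stub1 (0.998), Rexo2 (0.997), P4htm (0.996), Ap2s1 (0.996) and Pebp1 (0.995). Libraries of a group share genotype, age and depth, and the coefficients describe likeness of profile alone. Rax and Raxos1 were little alike over the 9 libraries (r = 0.215) and over the 6 P60 libraries (r = 0.461).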

How the data were processed

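Whole retinas were measured by bulk RNA sequencing in 9 libraries. Per the submitters' processing notes, HISAT2 2.1.0, featureCounts and edgeR were used with GRCm38; the versions of the last 2 tools, the annotation release and the strand setting were not given in the sources used here. The deposited count table holds raw whole-number counts for 47729 genes. In the authors' deposited table, group means are in FPKM, differences are log2 fold changes and the NRL and CRX columns are fold enrichments (a ratio), per the file headers; its 14 other per-library or group-mean columns were not used.

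The members and gene lists were chosen with earlier results of these data known. For each comparison the 6 libraries were fitted alone with edgeR 4.0.16 (R 4.3.3): filterByExpr (minimum count 10, total 15), TMM scaling, robust quasi-likelihood tests and Benjamini-Hochberg adjustment over all genes at 0.05. Levels by library use TMM over all 9 libraries, so they differ slightly from the means of a comparison. The smallest group has 3 libraries. Neighbours named were the nearest tested on each side and those called; other lists give the smallest p. Alternatives were RLE and upper-quartile scaling, no filter, 1 CPM in 3 libraries, bias-adjusted deviances, DESeq2 1.42.0, limma-voom 3.58.1, 1 fit over 9 libraries, the replicate block, thinning, scaling to Müller glia genes and leaving out each library. The fit was checked on simulated counts. Positions are from GENCODE M21.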

Additional observations from a re-analysis of the deposited data

How the results depend on the processing

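Raxos1 in Yap CKO against control kept its direction under all 16 alternatives, with log2 fold changes of 2.92 to 3.70; the highest came without control 3. Rax in that comparison stayed between 0.15 and 0.63. The number of genes called there, 33, was 15 with RLE scaling, with the filter of 1 CPM in 3 libraries, with bias-adjusted deviances and with limma-voom, 17 with upper-quartile scaling, 343 without a filter, 922 with DESeq2 and 60 in the fit over 9 libraries. Leaving out 1 library at a time gave 0 to 1473, 1473 being without Yap CKO 3. In this comparison DESeq2 called 1 opposite-strand gene and 2 neighbours where edgeR called 0, and leaving out a library gave 0 to 3 opposite-strand genes, 0 to 1 neighbours and 0 to 1 eye-field factors.

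For Rax against C57, leaving out a library gave log2 fold changes of −1.13 to −0.10 for control and −0.82 to 0.21 for Yap CKO; the sign turned without C57 1 (0.21) and with scaling to the Müller glia genes (0.14). Raxos1 in control against C57 was −0.52 with Müller scaling and −1.71 to −0.86 with a library left out, and in Yap CKO against C57 it was 2.56 with Müller scaling. It has no value in control against C57 under the filter of 1 CPM in 3 libraries or after thinning, which removed it. Leaving out a library gave 3905 to 8013 genes called in Yap CKO against C57 (6419 with all), 1 to 3 neighbours (3 with all) and 2 to 6 eye-field factors (4 with all), and 4 to 10 eye-field factors in control against C57 (5 with all). The cause was not tested.

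The replicate numbers did not pair the samples: deviations of same-numbered control and Yap CKO libraries correlated at 0.53, −0.08 and 0.01. With the replicate block, 45 genes were called between Yap CKO and control and Raxos1 was 3.21. Against C57 only replicates 1 and 2 (4 libraries) could be blocked: Rax was −0.98 for control (adjusted p = 1.9e-05 by edgeR) and −0.59 for Yap CKO (adjusted p = 0.0149 by edgeR), Raxos1 in control was −1.71, and 0 neighbours were called in control against C57. The main limits are the few Raxos1 reads in control and C57 libraries, 8 to 26, and 3 libraries a group.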
